A study of Homo sapiens with 6 samples.

Results

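Receptors that carry proteins between the endoplasmic reticulum (ER) and the Golgi apparatus were followed in the human colorectal adenocarcinoma line DLD1 after lentiviral delivery of a short hairpin RNA (shRNA), which directs the degradation of a matching transcript. The set named 10 genes: the lectin-type cargo receptors LMAN1 and LMAN2, the LMAN1 partner MCFD2, the KDEL receptors KDELR1, KDELR2 and KDELR3, the cargo receptor SURF4, and the ER-Golgi intermediate compartment proteins ERGIC1, ERGIC2 and ERGIC3. Members were taken as all probe sets whose only annotated gene symbol was one of these names, which gave 9 of the 10 genes and 33 probe sets, among 18132 genes and 44988 probe sets in all. KDELR2 was not analysed here. Each gene was read from its brightest probe set, that with the highest mean over all arrays. The set was put together with the contrast between the groups already known. The values, intervals and calls of its members below are therefore a description, and no test of the set was made.

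One group of 3 samples expressed an shRNA against CDKL1 (cyclin-dependent kinase-like 1, a serine/threonine kinase) and the other group of 3 samples expressed a control shRNA, both from lentivirus in the same DLD1 line. The sources used here give neither the time after infection nor the number of hairpins per gene. Total RNA of each sample was hybridised to 1 Affymetrix array, and the values are log2 levels that the authors had normalised between arrays, so that a difference of 1 is a factor of 2 in signal. Nothing in the labels says that the samples of a group came from separate infections, so the spread between them may be technical.

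The receptors work in a cycle. Cargo receptors bind folded proteins in the ER lumen and load them into vesicles coated with COPII, release them in the intermediate compartment or the Golgi, and return to the ER in vesicles coated with COPI. KDEL receptors run the retrieval leg: in the Golgi they capture soluble ER proteins that end in a Lys-Asp-Glu-Leu tail or a relative of it, and bring them back. In a secretory epithelium this traffic supplies mucins, enzymes and surface receptors.

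The levels of LMAN1, KDELR3, SURF4 and ERGIC2 were higher in every CDKL1 shRNA array than in any control shRNA array, by 2.29-fold, 1.81-fold, 1.45-fold and 1.25-fold. Those of LMAN2, KDELR1, ERGIC1, ERGIC3 and, on its brightest probe set, MCFD2 overlapped between the groups, with folds of 0.959 to 1.07. MCFD2 stood apart from that group on its dimmer probe sets, which were 1.54-fold and 1.59-fold higher. In the fit over all genes (limma, Benjamini-Hochberg adjusted p under 0.05) 4 of the 9 genes were called higher and 0 lower (0 also at an unadjusted p under 0.05), where 8.97% of all genes were called higher and 7.79% lower. At an unadjusted p under 0.05 (limma), 2686 of all 18132 genes were lower. The 3 CDKL1 shRNA arrays lay entirely above the 3 control arrays for the same 4 genes, where 18.1% of all genes did so. Nothing is read from these counts, since the set was chosen on this contrast. The median log2 change over the 9 genes was 0.10, against -0.01 over all genes.

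**Figure D1:**
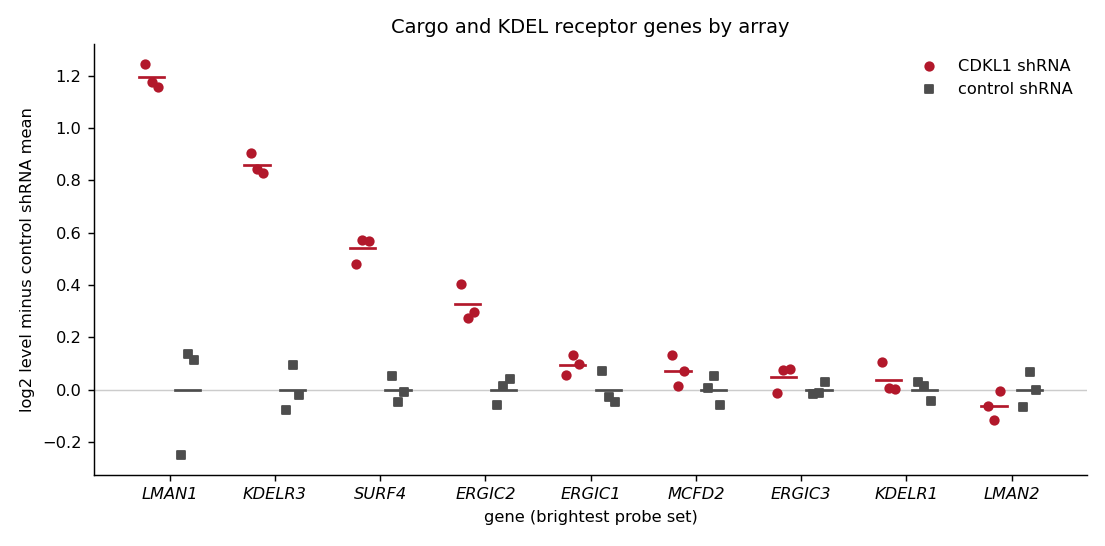
Log2 level of each receptor gene in each array, minus the mean of its 3 control shRNA arrays, for the brightest probe set. Circles are CDKL1 shRNA arrays, squares are control shRNA arrays, and bars are group means. LMAN1, KDELR3, SURF4 and ERGIC2 separate without overlap, while the points of the other 5 genes intermix.

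Of the KDEL receptors, KDELR3, read by probe set 11719002_at, had log2 levels of 11.01, 10.95 and 10.93 in CDKL1 shRNA arrays, against 10.03, 10.20 and 10.09 in control shRNA arrays. The lowest CDKL1 shRNA array thus stood 0.73 above the highest control array. The log2 change was 0.86 (SE 0.06, 95% interval 0.72 to 0.99), rank 32 among all 18132 genes by rise. Its second probe set, 11730045_a_at, had 10.43, 10.38 and 10.41 in CDKL1 shRNA arrays and 9.70, 9.78 and 9.75 in control arrays, a log2 change of 0.66. Both probe sets of this receptor separated the groups in the same direction.

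KDELR1, which retrieves the same kind of tailed protein as KDELR3, had log2 levels of 10.50, 10.40 and 10.40 in CDKL1 shRNA arrays, against 10.42, 10.41 and 10.35 in control arrays on probe set 11744544_s_at. The groups overlapped, and the log2 change was 0.04 (95% interval -0.08 to 0.15). Its other probe sets changed by 0.07 and 0.11, and none of the 3 separated the groups.

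The stretch of genome just before the gene start is shown for KDELR3, SURF4 and LMAN1, which separated the groups, and KDELR1, which did not. These can be compared there letter by letter, and the stretches of the other members are not printed. Sequences are from RefSeq (GRCh38.p14), 150 bases that end at the base before the annotated start, written 5′ to 3′ on the strand of the gene. Of the 10 genes, 8 had such a window. Capitals mark matches to 5 sets of letters known from ER and Golgi stress responses: the ER stress element ERSE (CCAAT and CCACG with 9 bases between), ERSE-II (ATTGG and CCACG with 1 base between), the core of the unfolded protein response element (TGACGTG), the Golgi apparatus stress response element (ACGTGGC) and the cyclic AMP response element (TGACGTCA), each searched on both strands in the 300 bases from 250 before to 50 after the start.
KDELR3, chr22:38467946-38468095, plus strand: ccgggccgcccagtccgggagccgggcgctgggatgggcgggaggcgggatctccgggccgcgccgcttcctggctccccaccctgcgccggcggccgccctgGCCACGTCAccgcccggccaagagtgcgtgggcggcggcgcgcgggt
SURF4, chr9:133376061-133376210, minus strand: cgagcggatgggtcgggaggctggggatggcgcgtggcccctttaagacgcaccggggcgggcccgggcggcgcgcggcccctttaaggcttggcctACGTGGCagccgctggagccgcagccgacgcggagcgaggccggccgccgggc
LMAN1, chr18:59359266-59359415, minus strand: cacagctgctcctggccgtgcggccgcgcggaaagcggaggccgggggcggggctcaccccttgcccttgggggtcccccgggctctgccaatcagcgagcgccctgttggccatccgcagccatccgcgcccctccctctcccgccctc
KDELR1, chr19:48391552-48391701, minus strand: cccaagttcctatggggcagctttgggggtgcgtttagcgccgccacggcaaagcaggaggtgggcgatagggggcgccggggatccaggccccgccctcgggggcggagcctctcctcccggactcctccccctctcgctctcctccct

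KDELR3 held TGACGTG at 45 to 39 bases and ACGTGGC at 47 to 41 bases before its start, on the opposite strand to the gene and overlapping each other, so that 1 stretch of 9 bases carries both. SURF4 held ACGTGGC at 53 to 47 bases before its start, on its own strand. The windows of LMAN1, LMAN2, KDELR1, ERGIC2, ERGIC3 and the 3 windows of MCFD2 held none of the 5. Over all 35116 promoter windows, TGACGTG occurred in 1.97%, ACGTGGC in 3.22%, TGACGTCA in 1.85%, ERSE in 0.0769% and ERSE-II in 0.0541%. A match is a match of letters in this window and not a measured binding site. The letters were chosen after the members' changes were known.

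LMAN1, also called ERGIC-53, is a mannose-binding transmembrane lectin that carries glycoproteins such as coagulation factors V and VIII out of the ER. Its brightest probe set, 11747181_a_at, had log2 levels of 12.10, 12.03 and 12.02 in CDKL1 shRNA arrays, against 10.61, 10.99 and 10.97 in control arrays. Every CDKL1 shRNA array was at least 1.02 above every control array, and control replicate 1 was the lowest of the 6. The log2 change was 1.19 (SE 0.10, 95% interval 0.95 to 1.43), rank 13 among all 18132 genes by rise. Probe set 11724211_a_at gave nearly the same value, with 11.63, 11.62 and 11.55 in CDKL1 shRNA arrays and 10.32, 10.52 and 10.49 in control arrays, a log2 change of 1.16.

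The remaining 4 probe sets of LMAN1 gave smaller differences. Probe set 11724210_at changed by 0.48 and 11724212_at by 0.20, with no overlap between the groups in either. Probe set 11724213_at changed by 0.11 and 11760808_at by 0.13, and in these the groups overlapped. The last of them had log2 levels of 4.70 to 4.97, around the highest mean of the background control probe sets (2.97 to 4.92 for probes with 10 to 16 G or C bases). The size of the LMAN1 difference thus depended on the probe set, from 0.11 to 1.19, while its sign was positive in all 6.

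MCFD2 is the soluble, calcium-binding partner that LMAN1 needs to carry factors V and VIII, and the loss of either gene causes a combined deficiency of these factors in people. On its brightest probe set, 11717009_s_at, log2 levels were 11.44, 11.32 and 11.38 in CDKL1 shRNA arrays, against 11.31, 11.36 and 11.25 in control arrays. The groups overlapped and the log2 change was 0.07 (SE 0.05, 95% interval -0.05 to 0.19). Probe set 11717010_a_at had 10.88, 10.93 and 10.92 in CDKL1 shRNA arrays against 10.20, 10.32 and 10.34 in control arrays, a log2 change of 0.63. Probe set 11748317_s_at had 10.24, 10.30 and 10.24 in CDKL1 shRNA arrays against 9.62, 9.60 and 9.56 in control arrays, a log2 change of 0.67. A further probe set, 11745178_a_at, held exactly the values of 11717010_a_at and was counted once with it. So 2 of the 3 distinct probe sets of MCFD2 separated the groups and the brightest did not, and with the mean of its probe sets as the gene's value the log2 change was 0.46 and the gene was called.

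LMAN2, also called VIP36, is a lectin of the same family that cycles in the early secretory pathway. It was read by the single probe set 11723919_x_at, with log2 levels of 10.74, 10.68 and 10.79 in CDKL1 shRNA arrays, against 10.73, 10.87 and 10.80 in control arrays. The groups overlapped and the log2 change was -0.06 (95% interval -0.19 to 0.07). The suffix of this probe set, _x_at, marks probes that may bind other transcripts. It is also borne by the brightest probe set of ERGIC3, by 11750021_x_at of SURF4, and by those of some listed genes below, such as GOSR2 and COPA.

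SURF4, the homologue of yeast Erv29, is a multi-spanning cargo receptor for secreted proteins and is known to move between the ER and the intermediate compartment. Its brightest probe set, 11715831_s_at, had log2 levels of 11.31, 11.40 and 11.40 in CDKL1 shRNA arrays, against 10.89, 10.79 and 10.83 in control arrays. The lowest CDKL1 shRNA array was 0.43 above the highest control array, and the log2 change was 0.54 (SE 0.05, 95% interval 0.42 to 0.66). All 6 probe sets of SURF4 separated the groups without overlap, with log2 changes of 0.46 to 0.68.

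The ERGIC proteins take part in cycling between the ER and the Golgi, and their values differed within the family. ERGIC2, read by probe set 11727402_at, had log2 levels of 11.17, 11.04 and 11.06 in CDKL1 shRNA arrays, against 10.70, 10.78 and 10.80 in control arrays, with no overlap. The log2 change was 0.33 (SE 0.05, 95% interval 0.20 to 0.45). Probe set 11758977_at changed by 0.56 without overlap, 11764106_s_at by 0.29 with overlap, and 11758978_at by 0.08 at levels within the range of the background controls.

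ERGIC1, on probe set 11743457_a_at, had log2 levels of 8.06, 8.13 and 8.10 in CDKL1 shRNA arrays, against 8.07, 7.97 and 7.95 in control arrays. The groups overlapped by 1 control array, and the log2 change was 0.10 (95% interval -0.02 to 0.21). Its 4 probe sets ran from -0.13 to 0.14. The CDKL1 shRNA arrays lay wholly above the control arrays on 11760575_at (0.14) and wholly below them on 11749796_a_at (-0.13), and neither was called. ERGIC3, on probe set 11715449_x_at, had 10.64, 10.72 and 10.73 in CDKL1 shRNA arrays, against 10.63, 10.63 and 10.68 in control arrays, a log2 change of 0.05 (95% interval -0.06 to 0.16). Its 3 probe sets changed by 0.03 to 0.09, and on 11754868_a_at (0.09) the CDKL1 shRNA arrays lay wholly above the control arrays without a call.

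Counted over the 32 distinct probe sets of the 9 genes, 15 were called higher in the limma fit over all probe sets and 0 lower (0 also at an unadjusted p under 0.05), where 7.43% of all probe sets were called higher and 5.34% lower. The share of all probe sets that were lower at an unadjusted p under 0.05 was not counted. The 3 CDKL1 shRNA arrays lay above the 3 control arrays in 18 of the 32, where 17.4% of all probe sets did so. The 15 came from LMAN1 (3 of 6), MCFD2 (2 of 3), KDELR3 (2 of 2), SURF4 (6 of 6) and ERGIC2 (2 of 4). Probe sets of 1 gene share its transcripts and are not independent.

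**Figure D2:**
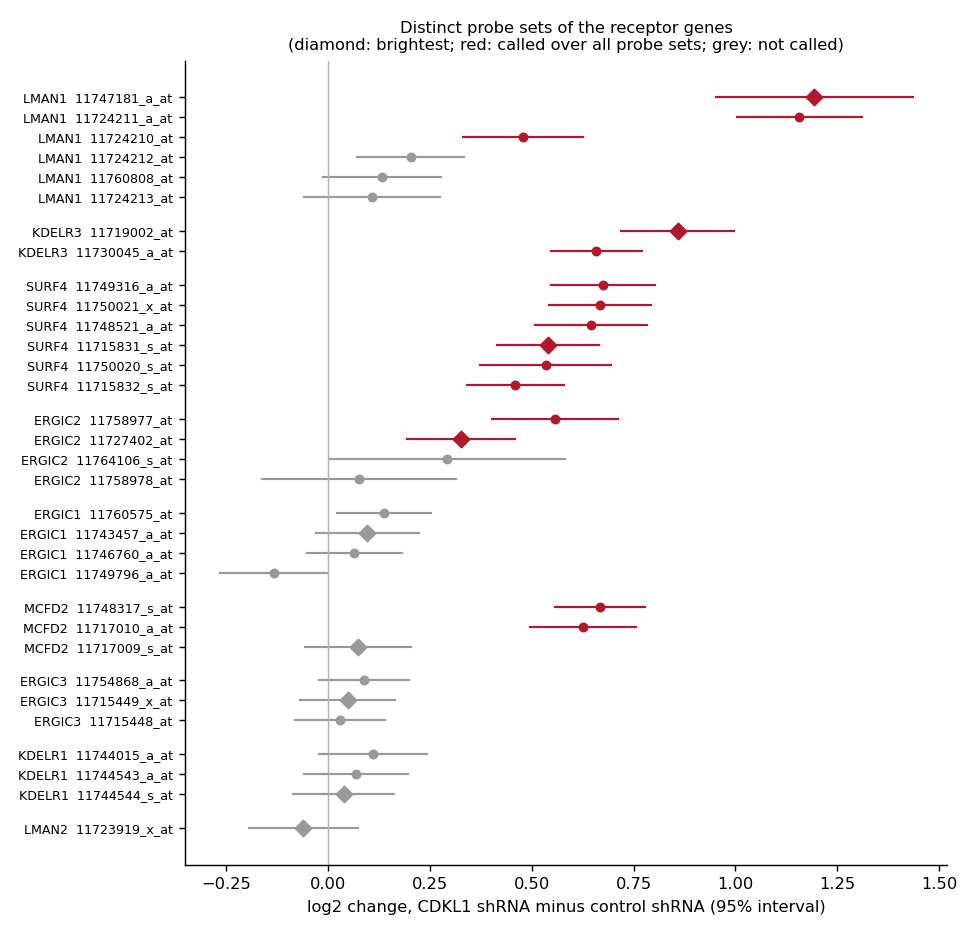
Log2 change of each distinct probe set of the receptor genes, CDKL1 shRNA minus control shRNA, with its 95% interval from the limma fit over all probe sets. All 6 probe sets of SURF4 and both of KDELR3 lie to the right of 0.4, LMAN1 spreads from 0.11 to 1.19, and the brightest probe set of MCFD2 lies apart from its other distinct probe sets at 0.63 and 0.67.

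Signs of RNA quality moved with the groups. On the ACTB control probe sets the 3′ signal exceeded the 5′ signal by 1.60 ± 0.115 log2 units in CDKL1 shRNA arrays and by 1.40 ± 0.0133 in control arrays (SD, n = 3 each; exact permutation test, two-sided p = 0.1, the smallest possible with 3 arrays a group). On the GAPDH control probe sets the same difference was 0.275 ± 0.0262 in CDKL1 shRNA arrays and 0.203 ± 0.018 in control arrays (SD, n = 3 each; exact permutation test, two-sided p = 0.1). When the ACTB difference was added to the fit, the log2 changes were 0.49 for SURF4 and 0.42 for ERGIC2, and neither was called any longer, while LMAN1 and KDELR3 were. The ACTB difference was higher in every CDKL1 shRNA array (1.52 to 1.73) than in any control array (1.39 to 1.41). In that fit it cannot be fully told apart from the group, and the part of RNA quality in these results was not tested further. The targeted gene did not check the labels: CDKL1 had a log2 level of 4.17 ± 0.09 in CDKL1 shRNA arrays and 4.37 ± 0.18 in control arrays (SD, n = 3 each), within the range of the background controls (limma adjusted p = 0.219). Of 10 epithelial and colon markers, 9 were above background, KRT20 was called higher and VIL1 lower, and 5 had an unadjusted p under 0.05. Over all 18132 genes, 8.97% were called higher and 7.79% lower. At an unadjusted p under 0.05 (limma), 2721 of all genes were higher and 2686 lower. The mean log2 level over all 10 was 10.43 to 10.49 in CDKL1 shRNA arrays and 10.49 to 10.54 in control arrays. CDH1 (-0.12), KRT8 (-0.15) and KRT18 (-0.13) were lower in every CDKL1 shRNA array than in any control array and were not called. EPCAM, KRT19, CDX1, CDX2 and CEACAM5 overlapped between the groups. The share of all genes that lay wholly lower was not counted, while 18.1% lay wholly higher. Of 15 measured fibroblast, leukocyte and endothelial markers, 0 were called (limma), and 0 had an unadjusted p under 0.05. The counts over all 18132 genes at that unadjusted level were the 2721 higher and 2686 lower given above. Their mean log2 levels by list were 4.55 to 5.91 in CDKL1 shRNA arrays and 4.62 to 5.96 in control arrays. Fibroblast COL3A1, DCN and LUM, leukocyte PTPRC and LYZ and endothelial CDH5 lay below the upper end of the background controls. Above that end lay 4 of 7 fibroblast, 2 of 4 leukocyte and 3 of 4 endothelial markers. In a bulk sample, more cells of one kind and more RNA per cell cannot be told apart.

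The 3 genes outside the set whose pattern over the 6 arrays lay closest to that of LMAN1, by Euclidean distance between log2 values centred on each gene's mean, were KRTAP2-3 (distance 0.299), DUSP1 (0.327) and CPA4 (0.328). They encode a keratin-associated protein, a MAP kinase phosphatase and a carboxypeptidase, and their log2 changes were 1.26, 1.08 and 1.23. With 2 groups of 3 arrays this likeness is mostly the size of the group difference.

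The coats and fusion proteins that move these receptors were then examined as a list. Of 33 measured genes, 23 rose, 1 fell and 9 did not pass (limma, adjusted p under 0.05), with a median log2 change of 0.34 against -0.01 over all genes, of which 8.97% rose and 7.79% fell. The list was written with earlier results of these data known. ARF4, a small GTPase of the early Golgi, had log2 levels of 13.46, 13.42 and 13.40 in CDKL1 shRNA arrays, against 12.48, 12.60 and 12.57 in control arrays, and rose by 0.88 (adjusted p = 0.000157). GOSR2, a Golgi SNARE, rose by 0.82 (9.10 ± 0.05 in CDKL1 shRNA arrays and 8.28 ± 0.07 in control arrays, SD, n = 3 each; limma adjusted p = 0.000237). COPA, the alpha subunit of the COPI coat, had 11.10, 11.13 and 11.09 in CDKL1 shRNA arrays against 10.43, 10.48 and 10.53 in control arrays, and rose by 0.62 (adjusted p = 0.00031). COPG1, another COPI subunit, rose by 0.56 (adjusted p = 0.000387).

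By role, in groups made after the values were seen, 6 of 9 COPI subunits rose and 0 fell (limma), with 1, COPZ1, lower at an unadjusted p under 0.05. Of all 18132 genes, 2686 were lower at that unadjusted level. Over all genes 8.97% rose and 7.79% fell, and among 10 genes of the COPII coat and its SAR1 GTPases 7 rose and 1 fell. SEC24C (-0.14) was lower at an unadjusted p under 0.05 (limma) and was not called. The one that fell was SEC23A, an inner COPII subunit, with log2 levels of 9.99, 10.03 and 10.05 in CDKL1 shRNA arrays against 10.58, 10.71 and 10.72 in control arrays, a change of -0.65 (limma adjusted p = 0.000483). Its paralogue SEC23B rose by 0.31 (adjusted p = 0.00372). All 4 probe sets of SEC23A had a negative sign, from -0.65 to -0.02, and 3 of them were called lower. With the ACTB difference as a covariate 5 genes of the list rose and 1 fell, while the list median was 0.36.

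**Figure D3:**
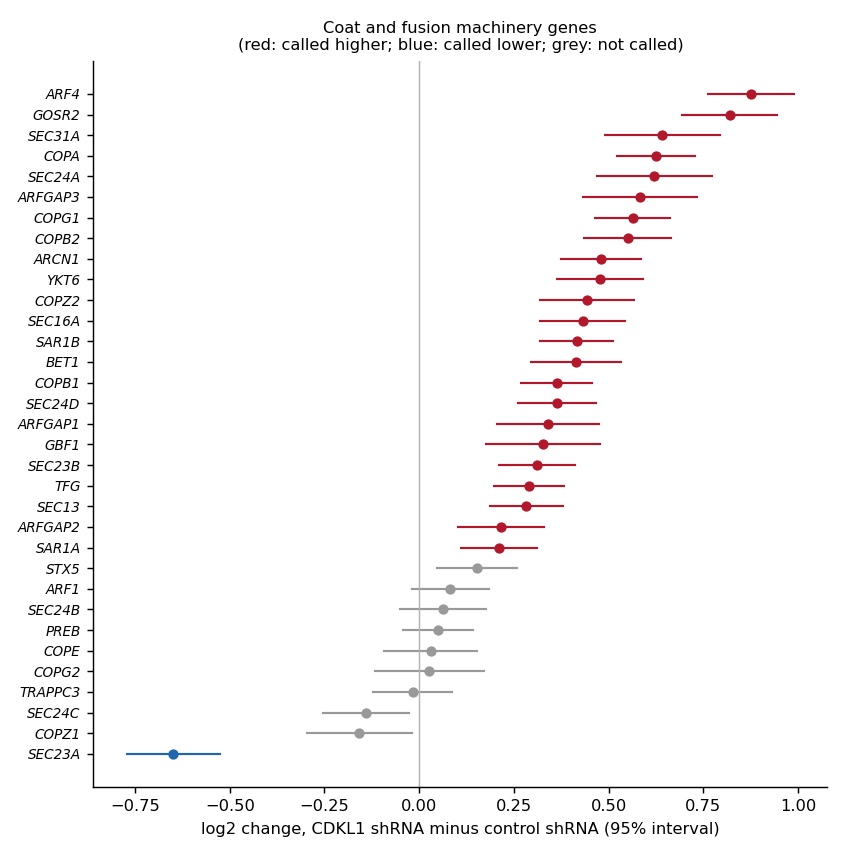
Log2 change of 33 coat and fusion machinery genes, CDKL1 shRNA minus control shRNA, with 95% intervals from the limma fit over all genes. Red marks the 23 genes that rose, blue SEC23A, the one that fell, and grey the 9 that did not pass.

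Other transmembrane adaptors and membrane proteins of the same compartments formed a further list. Of 23 measured genes, 8 rose, 3 fell and 12 did not pass, with a median log2 change of 0.15. The share that rose was 34.8%, against 8.97% of all genes, and the share that fell was 13.0%, against 7.79% of all genes. YIF1A, a membrane protein of ER-Golgi traffic, had log2 levels of 11.19, 11.27 and 11.23 in CDKL1 shRNA arrays, against 10.39, 10.38 and 10.46 in control arrays, and rose by 0.82 (limma adjusted p = 0.000157). Its family relative YIPF5 rose by 0.64, SERP1, which associates with the ER translocon, by 0.54, and the p24 adaptor TMED7 by 0.44. The p24 adaptors TMED9 (-0.23), TMED5 (-0.19) and TMED10 (-0.18) fell. The fall of TMED5 came from 1 of its 5 probe sets, since the other 4 had a positive sign, and with each array centred on its median neither TMED5 (limma adjusted p = 0.0511) nor TMED10 (adjusted p = 0.0674) passed. Over all probe sets 0 of the 4 probe sets of TMED10 were called. With the replicate block (TMED9 adjusted p = 0.0682, limma), with the ACTB covariate, without CDKL1 shRNA replicate 1 or 3, or without control replicate 2, 0 genes of this list were called lower. The closest relatives of the lectin receptors did not pass: LMAN2L changed by 0.17 (limma adjusted p = 0.113) and LMAN1L by 0.04 (adjusted p = 0.773). Without any 1 of the CDKL1 shRNA replicates, or without control replicate 2 or 3, 5 to 7 genes of this list passed in place of 11, and 5 passed with the replicate number as a block. With the ACTB covariate 3 passed.

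Genes listed as coding for soluble ER-lumen proteins, which carry or may carry a KDEL-like tail, were counted in the same way. The tails were not read here, so the list is not a count of KDEL receptor clients. Of 43 measured genes 4 rose, 9 fell and 30 did not pass, with a median log2 change of -0.09. The share that rose was 9.30%, against 8.97% of all genes, and the share that fell was 20.9%, against 7.79% of all genes. Without CDKL1 shRNA replicate 3 or control replicate 2, 4 rose and 5 fell. The 4 that rose were DNAJC10 (0.57), a disulphide reductase with a J domain, ERP44 (0.38), which retains client proteins in the early secretory pathway, the co-chaperone gene DNAJC3 (0.32) and the glycosyltransferase gene POGLUT3 (0.24). For ERP44, 2 of 4 probe sets were of opposite sign. The falls with the smallest adjusted p were those of the calcium-binding protein gene RCN2 (-0.57), SDF2L1 (-0.41), PDIA3 (-0.42), a disulphide isomerase for glycoproteins, and CNPY4 (-0.46), with limma adjusted p of 0.00319 to 0.00363. Among further genes of this list, named after their values were seen, ERP29 (-0.24) and MANF (-0.22) fell, and PDIA4 changed by -0.15 (limma adjusted p = 0.0549). HSPA5 (BiP) had a log2 level of 13.41 ± 0.02 in CDKL1 shRNA arrays and 13.42 ± 0.05 in control arrays (SD, n = 3 each). HSP90B1 (GRP94) had 14.08 ± 0.01 in CDKL1 shRNA arrays and 14.09 ± 0.01 in control arrays, and P4HB had 12.45 ± 0.02 in CDKL1 shRNA arrays and 12.46 ± 0.07 in control arrays. The 95% interval of the HSPA5 change was -0.11 to 0.09. Without control replicate 3, 3 rose and 4 fell, and with the ACTB covariate 1 gene passed.

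Proteins known or reported as cargo of LMAN1, LMAN2 or SURF4 were a list with many dim genes. Of 19 measured genes 7 were above the median gene level, and DSPP and APOB lay within the range of the background controls. In the list 4 genes rose, 3 fell and 12 did not pass, with a median log2 change of -0.06. The share that rose was 21.1%, against 8.97% of all genes, and the share that fell was 15.8%, against 7.79% of all genes. APP, the amyloid precursor, rose by 1.25, the lysosomal protease gene CTSZ by 0.33, SUMF1, which activates sulphatases, by 0.29 and LGALS3BP by 0.23. The protease gene CTSC fell by 0.42, the antitrypsin gene SERPINA1 by 0.25 and the factor VIII gene F8 by 0.25. For CTSC, 1 of 3 probe sets was of opposite sign. In the fit over all probe sets, 12 of 13 of APP and 1 of 1 of CTSZ were called the same way. For SUMF1 it was 1 of 4, LGALS3BP 0 of 1, CTSC 1 of 3, SERPINA1 2 of 4 and F8 1 of 3. F5, the other coagulation factor that LMAN1 and MCFD2 carry, had a log2 level of 5.59 in CDKL1 shRNA arrays and 5.58 in control arrays (limma adjusted p = 0.948). After a further quantile normalisation neither LGALS3BP (adjusted p = 0.0654) nor F8 (adjusted p = 0.0546) passed. Only 4 genes of this list passed without CDKL1 shRNA replicate 3, without control replicate 2 or 3, or with the replicate block, and 1 with the ACTB covariate.

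Among 16 sensors and transcription factors of ER and Golgi stress, 4 rose, 1 fell and 11 did not pass, with a median log2 change of 0.07. The share that rose was 25%, against 8.97% of all genes, and the share that fell was 6.25%, against 7.79% of all genes. HERPUD1, an ER stress protein of ER-associated degradation, had log2 levels of 11.22, 11.21 and 11.27 in CDKL1 shRNA arrays, against 10.41, 10.48 and 10.55 in control arrays, and rose by 0.75 (limma adjusted p = 0.00025). CREB3, a membrane-bound transcription factor released by cleavage in the Golgi, had 10.44, 10.54 and 10.59 in CDKL1 shRNA arrays against 9.85, 9.80 and 9.75 in control arrays, and rose by 0.72 (adjusted p = 0.000412). EIF2AK3 (PERK), a kinase that senses ER stress, rose by 0.62, and ATF6, which is cleaved under ER stress, by 0.32. CREB3L2, of the same family as CREB3, had 9.79, 9.84 and 9.84 in CDKL1 shRNA arrays against 10.37, 10.50 and 10.47 in control arrays, and fell by 0.62 (adjusted p = 0.000479). That fall was called in 1 of its 7 probe sets, and all 7 had a negative sign. XBP1 changed by 0.11 (adjusted p = 0.278), ATF4 by -0.10 (adjusted p = 0.189) and TFE3, which is known to bind ACGTGGC, by -0.01 (adjusted p = 0.971), and none of these passed. In the fit with the ACTB covariate 3 genes of the stress list rose and 1 fell. The ACTB difference between the groups holds for all of these lists, and its part in them was not tested beyond the covariate fit.

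**Figure D4:**
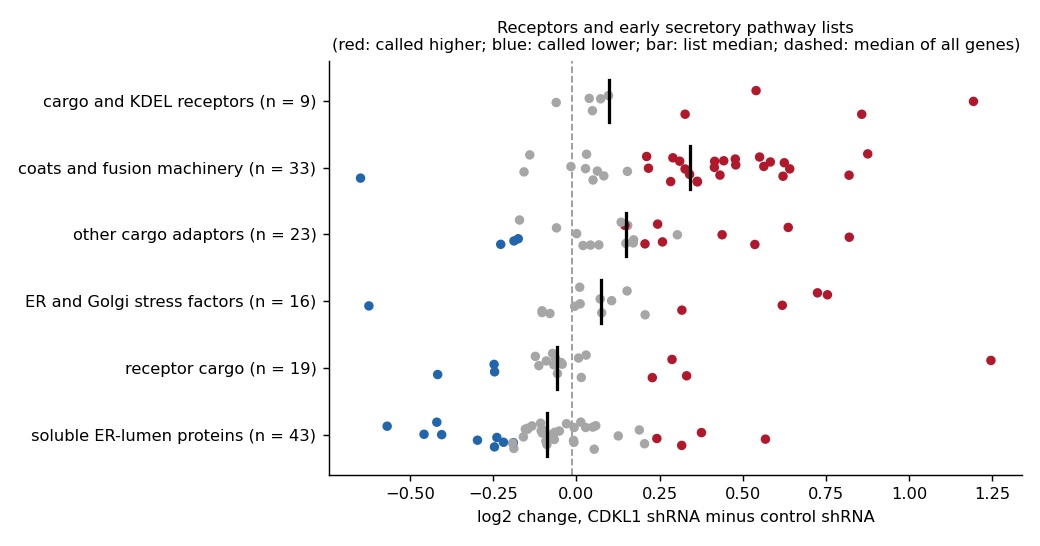
Log2 change, CDKL1 shRNA minus control shRNA, of each measured gene of the receptor set and of the 5 related lists, with 1 point per gene. Black bars are list medians, from 0.34 for coats and fusion machinery to -0.09 for soluble ER-lumen proteins, and the dashed line is the median of all genes at -0.01.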

How the data were processed

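Deposited values were log2 expression values, which the authors made with RMA, per the submitters' processing notes; RMA corrects background, normalises between arrays and summarises probes, and compresses changes of dim probe sets. No source used here gives its version, settings or genome build. Biotin-labelled cRNA came from 6 µg of total RNA, per the labels' protocols. Genes were named through the platform's annotation, in which 44988 probe sets had 1 symbol, 1832 several and 2473 none, and the 102 control probe sets were left out. Using limma 3.58.1 (R 4.3.3; lmFit, then eBayes), 18132 genes, and separately all probe sets of 1 symbol, were fitted on group alone, without a filter. Tests were two-sided at a Benjamini-Hochberg adjusted p under 0.05. Scanner files were not analysed here, and the number of arrays limits the precision. Promoter letters were searched with Python 3.11.15.

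The members, the 5 gene lists and the alternatives were chosen with earlier results of these data known. Named genes were all members, up to 4 called genes per list and direction, ranked by adjusted p, and the 3 genes closest in pattern to the member with the largest change. Others are said to be named after their values were seen, or are relatives of the members and known factors given for comparison. Same-numbered samples deviated with r of -0.029, -0.121 and 0.0699 across genes, so the numbers were not taken to pair the samples.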

Additional observations from a re-analysis of the deposited data

How the results depend on the processing

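The 4 members called higher stayed 4 when any 1 array was left out, with the replicate number as a block, after a further quantile normalisation, after subtraction of each array's median, over genes above the median level, and with a trended robust prior. They were 5 with the mean of all probe sets and 5 when any probe set counted, an alternative chosen after seeing the data, in both cases through MCFD2. With the ACTB 3′ minus 5′ covariate they were 2, and LMAN2, which was never called, changed sign to 0.0094. Over 13 alternatives the log2 change ran from 0.55 to 1.26 for LMAN1, the lowest value being that with the mean of its probe sets, and from 0.76 to 0.91 for KDELR3. The range was 0.49 to 0.59 for SURF4 and 0.29 to 0.42 for ERGIC2. The members were chosen on this contrast, so these counts and ranges are a description only.

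The count of 3040 genes called over all genes was 1803 with the replicate block, 1633 to 2399 with 1 array left out and 219 with the ACTB covariate. It was 3232 after a further quantile normalisation, 2787 with array medians subtracted and 2948 with the mean of all probe sets. Over genes above the median level it was 3991, and with the trended robust prior 4201. With the ACTB covariate the calls in the lists were 6 for coats and fusion machinery, 3 for other adaptors, 1 for receptor cargo and 1 for soluble ER-lumen proteins, against 24, 11, 7 and 13. The stress factors gave 4 calls with this covariate, against 5. With 1 array left out the calls were 22 to 25, 5 to 9, 4 to 6 and 7 to 11 in the same order, and 5 to 6 for the stress factors. With the replicate block, other adaptors gave 5 calls and receptor cargo 4. Soluble ER-lumen proteins gave 20 calls with the trended robust prior, and other adaptors gave 16. Over genes above the median level, soluble ER-lumen proteins gave 19 calls and other adaptors 16. TMED5 turned to 0.13 with the mean of its probe sets. Fits with fewer arrays or an added term hold less precision, and the cause of these shifts was not tested. Same-numbered samples were not paired by the labels, and the replicate block changed no member's call.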
